A study of Mus musculus with 12 samples.

Results

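The genes described here are those whose level in Cherry- lung cells was higher at day 10 than at day 5 after 4T1 tumour cells were injected into the bloodstream. There were 163 of them among 32958 genes of the deposited table, 15842 of which were tested. They were chosen on the deposited log2 values. A gene was taken when its mean over the 3 day 10 Cherry- libraries exceeded that over the 3 day 5 Cherry- libraries by at least 1.25 log2 units, the lowest day 10 library lay above the highest day 5 library, and the highest of the 4 group means reached at least 6. Bounds on the labelled cells were added, with day 10 Cherry+ less than 1.75 above day 10 Cherry- and day 5 Cherry+ not more than 2.75 below day 5 Cherry-. The day difference in Cherry- cells is therefore what the genes were picked for, and it is given below as a description, without a test.

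All 4 groups came from female Balb/c mice, 6 to 10 weeks old, that carried labelling 4T1 cells, which are mouse mammary tumour cells able to seed the lung. The groups were day 5 Cherry-, day 5 Cherry+, day 10 Cherry- and day 10 Cherry+, with 3 libraries each, all from lung cells sorted as CD45-Ter119-. No group analysed here came from a mouse without tumour cells, so a difference between the days cannot be told apart from time since the procedure itself. No source used here says whether a library holds 1 animal or a pool. Sample names show 1 letter shared by the Cherry- and Cherry+ library of the same day and number, and a different letter at the other day, without saying what the letter stands for.

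As background, CD45 marks blood leukocytes and Ter119 marks cells of the red lineage, so the gate leaves the structural cells of the lung, and by itself it would not exclude tumour cells. The structural cells are the epithelium that lines airways and alveoli, the endothelium of the vessels, fibroblasts and the muscle and pericytes around vessels. A labelling tumour line secretes an mCherry protein able to enter cells, and cells close to the tumour take it up. Cherry+ cells then mark the surroundings of tumour cells, and Cherry- cells represent lung that has not taken up the label. This reading of the label is background, since the sample labels do not spell it out.

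The genes are known only by their identifiers in the UCSC known-gene series. The tables of gene names used here held 0 of the 163, and no name was guessed. The sorted cell types were for this reason not checked against markers, and no pathway was counted. For the same reason 4 identifiers are given, chosen as the 2 genes with the largest day difference in Cherry- cells and the 2 with the lowest day difference in Cherry+ cells. One pair of the 163 rows held the same 12 values, so the 163 rows carry 162 distinct profiles.

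Library medians over all genes tested lay between 8.70 and 8.82, and read depth is unknown. There were 3 libraries that stood apart from the other 2 of their group over all genes tested. Day 5 Cherry- replicate 1 had a mean root mean square difference of 0.76 log2 units from its group, against 0.54 and 0.55. Day 5 Cherry+ replicate 3 had 0.63, against 0.50 and 0.49, and day 10 Cherry+ replicate 3 had 0.74, against 0.62 and 0.57.

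In Cherry- cells the median of the 163 group means was 6.32 at day 5 and 8.07 at day 10, where all genes tested had 8.79 and 8.82. The median difference was 1.66 log2 units, or 3.16-fold, and the differences ranged from 1.26 to 3.39 (2.40-fold to 10.5-fold). At least 2 log2 units were reached by 37 genes and at least 3 by 2 genes. In a bulk sort, more cells of one type and more RNA per cell cannot be told apart, and both would appear as such a difference. Other genes that started between the quartiles of the 163 at day 5 (5.42 to 7.20) numbered 2139, with a median difference of -0.07. The rule, turned round to ask for falls of the same size without overlap and without the bounds on Cherry+ cells, found 6 genes, against 226 for rises on the same terms.

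By library, the median of the 163 genes was 6.33, 6.34 and 6.29 in the 3 day 5 Cherry- libraries and 8.40, 8.22 and 7.61 in day 10 Cherry- replicates 1, 2 and 3. The day 5 libraries lay close together in this median, and the day 10 libraries did not. Replicate 3 was the lowest of the 3 day 10 Cherry- libraries for 149 of the 163 genes (91.4%), a place it held for 39.95% of all genes tested. Replicate 1 was the highest for 103 (63.2%), against 28.7% of all genes tested. The median deviation of replicate 3 from its group mean was -0.44 over the 163 genes and -0.003 over all genes tested. The Cherry+ library with the same source letter, day 10 Cherry+ replicate 3, was the lowest of its own group for 91 of the 163 genes (55.8%), against 41.6% of all genes tested. What these libraries contribute to the results below, beyond the fits without them, was not tested.

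**Figure D1:**
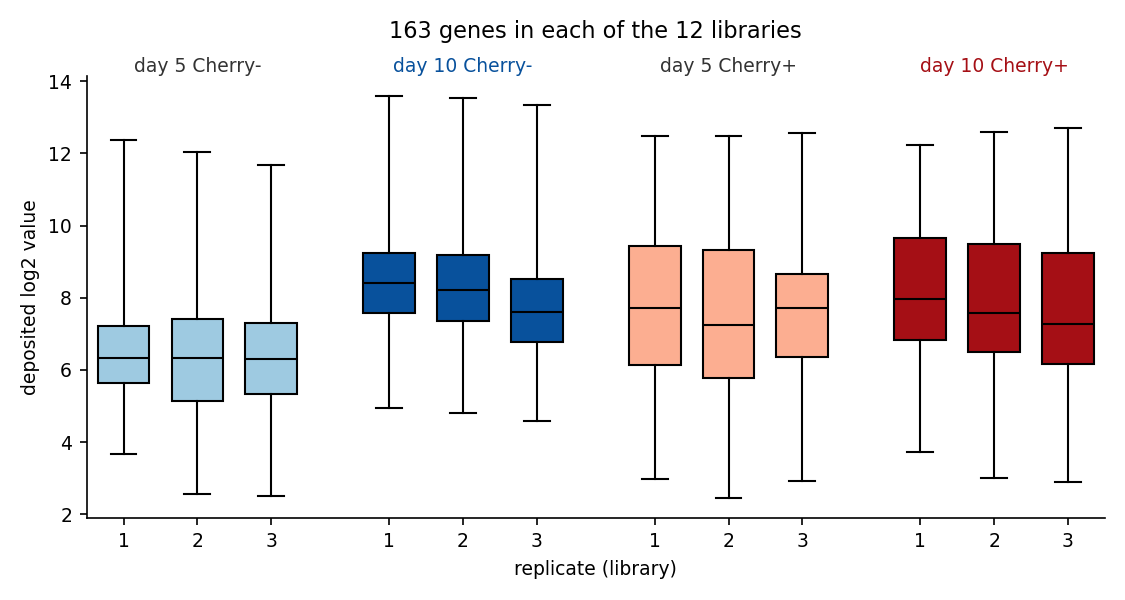
Deposited log2 values of the 163 genes in each of the 12 libraries, grouped by day and Cherry label. Boxes span the quartiles, the line is the median and whiskers reach the lowest and highest gene. The 3 day 5 Cherry- medians lie together near 6.3, and day 10 Cherry- replicate 3 is the lowest day 10 Cherry- library at 7.61.

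The margin between the days was narrow for many of the genes. The lowest day 10 Cherry- library lay above the highest day 5 Cherry- library by a median of 0.88 log2 units, and by at least 1 in 63 genes. The smallest margin was 0.07, and that of the nearest gene left out was -0.03. The smallest difference taken was 1.262 and the largest left out was 1.249. The largest day 10 Cherry+ excess taken was 1.747 and the smallest left out was 1.753, and the lowest top level taken was 6.02 against 5.96 for the nearest left out. The lower bound on day 5 Cherry+ cells removed 0 genes, and the upper bound at day 10 removed 63. The number of genes taken was sensitive to 2 libraries, since the same rule gave 260 genes without day 5 Cherry- replicate 1 (150 of the 163 among them) and 250 without day 10 Cherry- replicate 3 (162 among them). It gave 262 (148 among them) without the 3 libraries that stood apart.

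The spread within groups was larger for these genes than for most. In Cherry- cells their median SD was 0.36 at day 5 and 0.43 at day 10, and in Cherry+ cells it was 0.51 and 0.34 (n = 3 each). All genes tested had 0.18 and 0.16, and 0.26 and 0.25. The other genes of like day 5 Cherry- level had 0.27 and 0.23, and 0.34 and 0.36. In day 10 Cherry+ cells the median SD of the 163 was not above that of those genes. Their levels there were unlike, with a median of 7.58 for the 163 and 5.98 for the others, so this does not compare spread at like level. In limma, fitted to all genes and groups, 44 of the 163 passed an adjusted p of 0.05 for the day difference in Cherry- cells, where 0.366% of all genes tested passed as higher. The rule used this contrast, so nothing is read from that count.

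The gene with the largest day difference in Cherry- cells was uc007kpq.1. Its level was 5.11, 4.90 and 5.32 in the day 5 Cherry- libraries and 8.52, 8.86 and 8.11 in the day 10 Cherry- libraries. In Cherry+ cells it was 5.92, 5.36 and 5.62 at day 5 and 7.42, 6.99 and 6.65 at day 10. In both kinds of cell every day 10 library was above every day 5 library, and at day 10 every Cherry- library was above every Cherry+ library. The Cherry- difference was 3.39 ± 0.27 log2 units (SE), or 10.5-fold. The Cherry+ difference was 1.38 ± 0.27 (SE), with an adjusted p of 0.0246 in limma (0.0172 to 0.198 over the alternatives). Leaving out day 5 Cherry+ replicate 2 ended this call (adjusted p = 0.0528), as did leaving out day 5 Cherry+ replicate 3 (0.0616) or day 10 Cherry+ replicate 2 (0.104). It was also lost with library quality weights (0.0844) and when only the Cherry+ libraries were fitted (0.198).

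The next was uc008vip.2, at 5.62, 4.80 and 4.88 in day 5 Cherry- and 8.68, 8.19 and 7.74 in day 10 Cherry- libraries. Its Cherry+ levels were 5.61, 5.74 and 6.995 at day 5 and 7.67, 7.04 and 7.20 at day 10. Day 5 Cherry+ replicate 3 stood well above the other 2 and reached almost to the day 10 libraries. The Cherry- difference was 3.10 ± 0.39 (SE), or 8.59-fold. The Cherry+ difference of 1.19 ± 0.39 (SE) had an adjusted p of 0.109 in limma (0.0193 to 0.279 over the alternatives). Leaving out day 5 Cherry+ replicate 3 gave 1.63 (adjusted p = 0.0577), and it was 1.68 without the 3 libraries that stood apart (adjusted p = 0.0193).

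**Figure D2:**
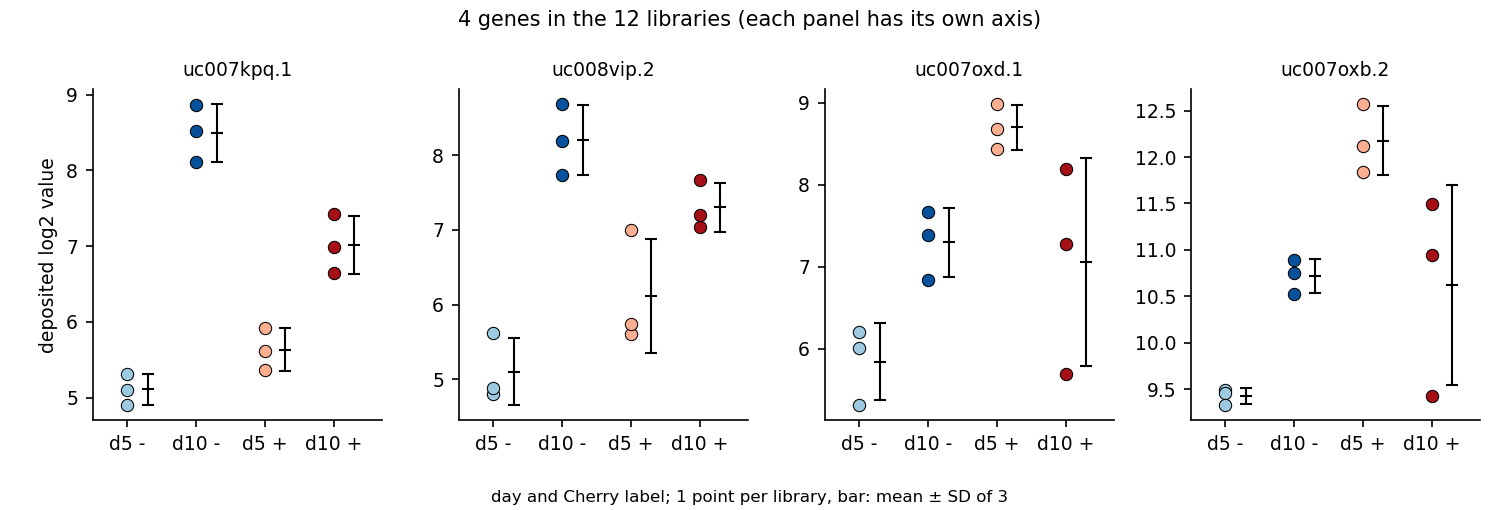
Deposited log2 values of the 4 genes given by identifier in the 12 libraries, with the mean and SD of each group of 3 beside the points. The first 2 have their highest level in day 10 Cherry- cells, and the last 2 in day 5 Cherry+ cells, with day 10 Cherry+ libraries spread from 5.69 to 8.19 and from 9.43 to 11.50.

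The most abundant of the 163 genes at day 5 differed from these in its relation to the label. It lay at 12.36, 12.04 and 11.67 in day 5 Cherry- and at 13.59, 13.53 and 13.35 in day 10 Cherry- libraries. In Cherry+ cells it was lower, at 10.22, 9.90 and 10.18 at day 5 and 10.44, 9.60 and 8.44 at day 10. The labelled and unlabelled libraries did not overlap at either day. This gene was chosen after its values were seen.

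Whether the labelled cells changed in the same way between the days was asked with the 6 Cherry+ libraries, which the rule used through its bounds and through its condition on the highest group mean. That condition was met only by a Cherry+ mean in 6 genes, and the other 157 held 9 called higher and 0 lower, with a median Cherry+ difference of 0.10. Few of the 163 genes passed the test. Between the days 9 were higher at day 10 in Cherry+ cells at an adjusted p under 0.05 in limma and 0 were lower, or 5.52% of the 163, where 1.35% of all genes tested were called higher and 3.04% lower (4.39% together). At an unadjusted p under 0.05 there were 24 higher and 5 lower of the 163, and 1306 higher and 2011 lower of all genes tested. The median Cherry+ difference was 0.11 log2 units (1.08-fold), with quartiles of -0.15 and 0.48 and a range from -1.64 to 2.29, and the median over all genes tested was -0.02. The other genes of like day 5 Cherry- level, which had a lower median level in Cherry+ cells, had a median difference of -0.04, with 0.701% called higher. The median standard error of 1 gene was 0.37, against 0.22 over all genes tested and 0.30 over those other genes. The median Cherry+ difference depended on the libraries. Leaving out replicate 1 of day 10 Cherry+ gave 0.05, replicate 3 of that group 0.26, and replicate 1 of day 5 Cherry+ 0.24. It was 0.28 with library quality weights and 0.34 without the 3 libraries that stood apart.

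By sign alone, 101 of the 163 were higher in Cherry+ cells at day 10 (61.96%), against 48.1% of all genes tested. The 3 day 10 Cherry+ libraries all lay above the 3 day 5 Cherry+ libraries for 23 genes, or 14.1%, where 9.25% of all genes tested did so, and all lay below for 4 genes, or 2.45%, where 12.1% did so. Without the 3 libraries that stood apart these counts were 74 (45.4%, against 24.8% of all genes tested) and 36 (22.1%, against 31.3%), with fewer libraries that could overlap. A Cherry+ difference of at least 1.25, the size the rule asked for in Cherry- cells, was found in 11 genes (6.75%), where 0.739% of all genes tested had one. A difference of -1.25 or less was found in 3 (1.84%), where 2.72% had one. It was under 0.5 in size in 114 of the 163 (69.9%), against 77.7% of all genes tested. The larger standard error of the 163 by itself favours larger differences in either direction. The Cherry+ difference was smaller than the Cherry- difference in 160 of the 163, which the selection on the latter favours.

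**Figure D3:**
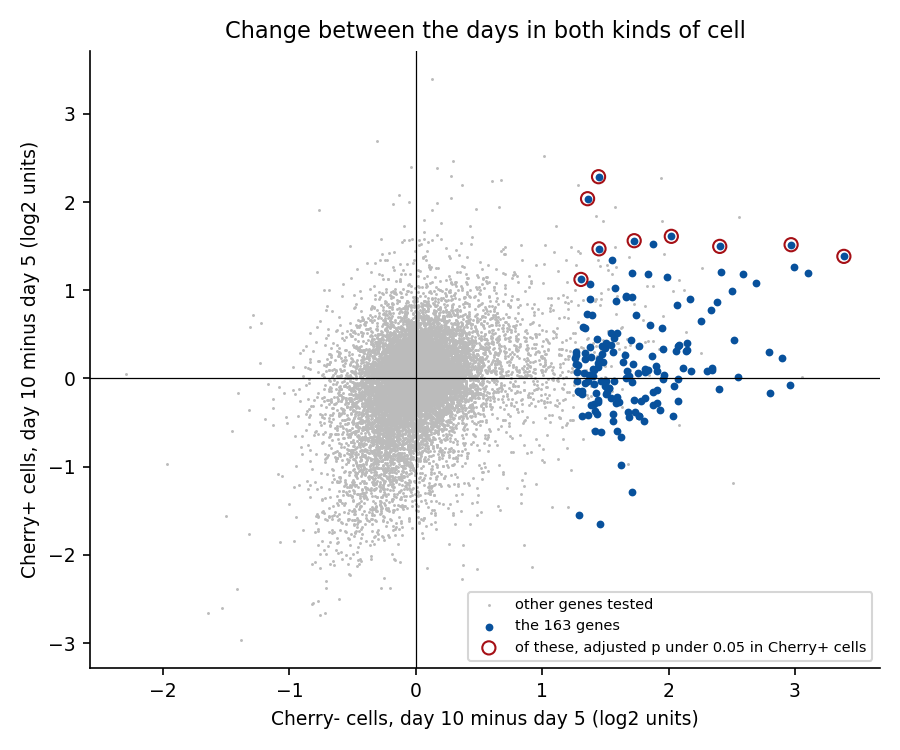
Day 10 minus day 5 in Cherry- cells (horizontal) and in Cherry+ cells (vertical), in log2 units, with 1 point per gene tested. The 163 genes, in blue, begin at 1.26 on the horizontal axis because they were chosen there. On the vertical axis 69.9% of them lie less than 0.5 from 0, against 77.7% of all genes tested. The 9 circled genes (5.52%) passed the test as higher in Cherry+ cells, against 1.35% of all genes tested.

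The upper bound at day 10 caps how far a gene may rise in Cherry+ cells, so the 63 genes it removed were examined as well. Their median level went from 5.67 to 7.32 between the days in Cherry- cells and stood at 9.14 and 9.51 in Cherry+ cells. They were removed for a high day 10 Cherry+ level, which favours a Cherry+ rise between the days. Their median Cherry+ difference was 0.53, with 5 called higher and 0 lower, where 1.35% of all genes tested were called higher and 3.04% lower. With them included, 14 of 226 genes were called higher and 0 lower, and the median Cherry+ difference was 0.26.

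The 9 genes called in Cherry+ cells had Cherry+ differences from 1.122 to 2.29 log2 units, with standard errors from 0.27 to 0.47 and adjusted p from 0.0159 to 0.0450 in limma. Their Cherry- differences ranged from 1.31 to 3.39. In 6 of the 9 the Cherry+ difference was the smaller one, and in all 9 the Cherry+ libraries of the days did not overlap, which a test on those libraries favours. The largest Cherry+ difference, 2.29, belonged to a gene at 6.63, 6.85 and 6.38 in day 5 Cherry+ and 8.95, 9.28 and 8.48 in day 10 Cherry+ libraries. Its Cherry- levels were 7.19, 7.83 and 7.13 at day 5 and 9.18, 9.32 and 8.001 at day 10. The labelled cells thus started lower, and at day 10 the Cherry+ libraries lay within the range of the Cherry- libraries. It too was singled out after its values were seen.

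The count of 9 rested on single libraries and on the model of the spread. With day 10 Cherry+ replicate 2 left out it was 0, as it was with library quality weights (0) and with the Cherry+ libraries fitted alone (0), and 0 of all genes tested were called in these 3 fits. Leaving out day 5 Cherry+ replicate 1 gave 4 genes (2.45%, against 1.31% of all genes tested in the same fit), and replicate 2 gave 3 (1.84%, against 2.93%). All of these were higher, where 0.284% and 0.934% of all genes tested were called higher in the same fits. Leaving out day 5 Cherry+ replicate 3 gave 4 (2.45%, against 0.619%), of which 2 were higher and 2 lower. A Cherry- library enters only the shared spread, yet leaving out day 5 Cherry- replicate 1 gave 5, replicate 2 gave 4 and replicate 3 gave 4, and leaving out day 10 Cherry- replicate 1 or 2 gave 4 each. In these fits the share of the 163, all called higher, lay between 2.45% and 3.07%. That of all genes tested lay between 2.02% and 3.06%, and between 0.543% and 0.953% for those called higher. With day 10 Cherry- replicate 3 left out the count was 8, all higher (4.91%, against 3.31%, with 1.01% called higher). Leaving out day 10 Cherry+ replicate 3 gave 14 (8.59%, against 2.49%), of which 13 were higher. Leaving out day 10 Cherry+ replicate 1 gave 13 (7.98%, against 10.4% of all genes tested). Of the 13, 9 were higher (5.52%, against 2.56% of all genes tested) and 4 lower (2.45%, against 7.89%). Without the 3 libraries that stood apart it was 34, of which 25 were higher (15.3%, against 3.50% of all genes tested) and 9 lower (5.52%, against 4.70%).

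The 2 genes with the lowest Cherry+ difference were uc007oxd.1 and uc007oxb.2, whose identifiers differ in the last letter. They were picked on this difference in the same libraries, which favours a large size and a low p. The level of uc007oxd.1 was 6.01, 5.31 and 6.20 in day 5 Cherry- and 6.84, 7.66 and 7.39 in day 10 Cherry- libraries. In Cherry+ cells it was 8.44, 8.68 and 8.99 at day 5 and 8.19, 7.28 and 5.69 at day 10. Each day 10 Cherry+ library was below each day 5 Cherry+ library, but replicate 3 was below every day 10 Cherry- library while replicate 1 was above them. The Cherry- difference was 1.46 and the Cherry+ difference -1.64 ± 0.51 (SE), with an adjusted p of 0.0934 in limma (0.0123 to 0.314 over the alternatives). Leaving out day 10 Cherry+ replicate 3 gave -0.96 (adjusted p = 0.180), and leaving out replicate 1 gave -2.21 (adjusted p = 0.0123). Without the 3 libraries that stood apart it was -0.82 (adjusted p = 0.203).

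The level of uc007oxb.2 was 9.49, 9.46 and 9.33 in day 5 Cherry- and 10.75, 10.89 and 10.52 in day 10 Cherry- libraries. In Cherry+ cells it was 12.12, 11.84 and 12.57 at day 5 and 11.50, 10.95 and 9.43 at day 10. At day 5 the labelled libraries were well above the unlabelled ones, and at day 10 the Cherry+ libraries spanned the Cherry- range. The Cherry- difference was 1.29 and the Cherry+ difference -1.55 ± 0.40 (SE), with an adjusted p of 0.0538 in limma (0.00744 to 0.265 over the alternatives). The test was passed when day 10 Cherry+ replicate 3 was left out (-0.95, adjusted p = 0.0468), when replicate 1 was left out (-1.99, adjusted p = 0.00744), and without the 3 libraries that stood apart (-0.75, adjusted p = 0.0402).

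For most of the 163 genes the day 5 Cherry+ mean was above the day 5 Cherry- mean, though in 73 the means were within 1 log2 unit. The comparisons of Cherry+ with Cherry- cells share their Cherry- libraries with the rule, which also bounds them, so they are given as a description. At day 5 the 163 genes had a median of 7.49 in Cherry+ cells, and the median Cherry+ minus Cherry- difference was 0.98. All 3 Cherry+ libraries lay above all 3 Cherry- libraries for 95 genes (58.3%), where 23.9% of all genes tested did so, and all lay below for 13 (7.98%), where 25.5% did so. Measured against the later rise of the Cherry- cells, day 5 Cherry+ cells stood at a median of 56.6% of the way from the day 5 to the day 10 Cherry- mean. They were at or above the day 10 Cherry- mean for 52 genes, in the upper part of the interval for 39, in the lower part for 50 and below the day 5 Cherry- mean for 22. The median position was 44.2% without the 3 libraries that stood apart, and in their absence 110 genes lay wholly above (67.5%, against 37.0% of all genes tested) and 13 wholly below (7.98%, against 39.3%). Choosing genes for a low day 5 and a high day 10 Cherry- level favours a Cherry+ excess at day 5 and a deficit at day 10.

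At day 10 the median was 7.58 in Cherry+ cells and the median Cherry+ minus Cherry- difference was -0.69. The Cherry+ libraries all lay above the Cherry- libraries for 45 genes (27.6%), where 26.0% of all genes tested did so, and all lay below for 49 (30.1%), where 28.1% did so. These counts were 56 (34.4%, against 31.03%) and 51 (31.3%, against 32.9%) without the 3 libraries. Day 10 Cherry- cells had the highest of the 4 group means for 99 of the 163 genes, day 10 Cherry+ cells for 37 and day 5 Cherry+ cells for 27. Over all genes tested these groups were highest for 17.6%, 27.9% and 22.3%, and day 5 Cherry- cells for 32.2%. Day 5 Cherry- cells had the lowest mean for 141, day 5 Cherry+ cells for 15 and day 10 Cherry+ cells for 7. The commonest order, from low to high, was day 5 Cherry-, day 5 Cherry+, day 10 Cherry+ and day 10 Cherry-, in 50 genes. Under the rule day 5 Cherry- cells could not be the highest, nor day 10 Cherry- cells the lowest. The choice of genes therefore favours these counts and this order.

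**Figure D4:**
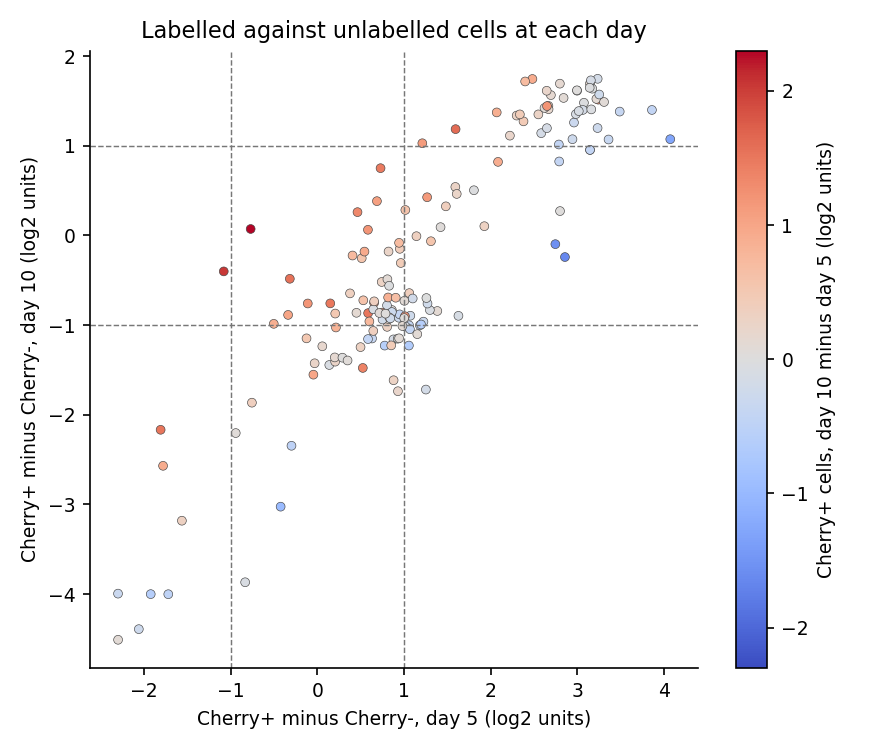
Cherry+ minus Cherry- at day 5 (horizontal) and at day 10 (vertical) for the 163 genes, in log2 units, coloured by the day difference in Cherry+ cells. Dashed lines mark 1 and -1, and no gene is above 1 at day 10 without being above 1 at day 5. The choice of genes by their Cherry- difference between the days favours this.

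Split at 1 log2 unit, the genes fell into 4 main patterns. In 44 genes (26.99%) Cherry+ cells were above Cherry- cells by 1 or more at both days. At day 5 their median was 6.52 in Cherry- and 9.49 in Cherry+ cells, and at day 10 it was 8.08 and 9.57. Their median Cherry+ difference between the days was 0.05, with 2 called higher, where 1.35% of all genes tested were.

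In 30 genes (18.4%) Cherry+ cells were above by 1 or more at day 5 and within 1 at day 10. Their medians were 6.41, 7.78, 8.11 and 7.82 in the same order, and 0 were called in Cherry+ cells. Another 44 genes were within 1 at both days, with medians of 5.82, 6.60, 8.01 and 7.13. These had a median Cherry+ difference of 0.47, above 0 in 36 of the 44, and held 5 of the 9 genes called higher. Over all genes tested 48.1% were above 0 and 1.35% were called higher. The split uses the same Cherry+ libraries as the test, so it partly sets which pattern holds the called genes. In 29 genes (17.8%) the labels were within 1 at day 5 and Cherry+ cells were below by 1 or more at day 10. Their medians were 6.42, 6.33, 8.34 and 6.83, and 1 was called higher in Cherry+ cells.

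Smaller patterns held the other 16 genes. Cherry+ cells were below by 1 or more at both days in 8 genes, whose medians were 7.65, 5.57, 9.20 and 5.29. The lowest of these relative to Cherry- cells lay at 8.62, 8.80 and 7.59 in day 10 Cherry- and 3.73, 4.12 and 3.63 in day 10 Cherry+ libraries, and at 6.10, 5.96 and 6.05 against 4.18, 3.98 and 3.05 at day 5. It was selected after its values were seen. In 7 genes Cherry+ cells were above at day 5 and below at day 10, and 1 gene was below at day 5 and within 1 at day 10. Without the 3 libraries that stood apart the 4 main patterns held 46, 23, 61 and 23 genes in the order given, of which 44, 21, 40 and 18 were in the same pattern with all libraries. The pattern above at day 5 and below at day 10 then held 0. The pattern within 1 at day 5 and above at day 10, empty with all libraries, then held 1.

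**Figure D5:**
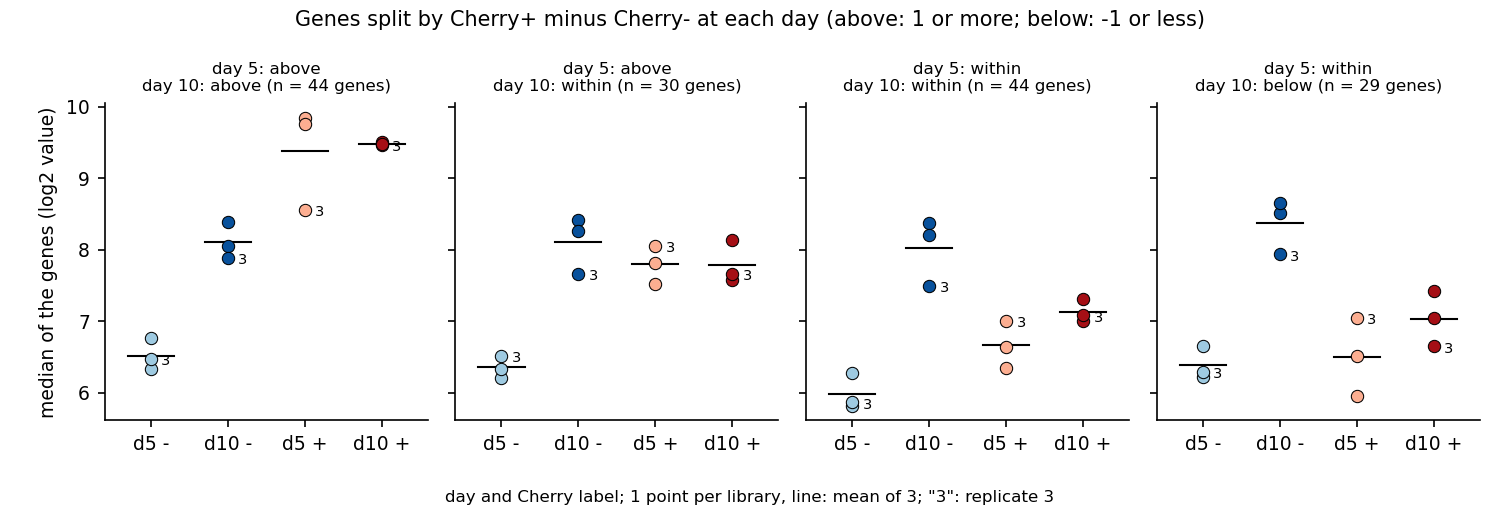
Median log2 value of the genes of each of the 4 main patterns, with 1 point per library, a line at the mean of 3 and replicate 3 marked. Day 5 Cherry- medians lie between 5.81 and 6.76 in every panel, while the Cherry+ medians differ between panels, and day 5 Cherry+ replicate 3 lies at 8.56 against 9.85 and 9.75 in the first panel.

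Day 5 Cherry+ replicate 3, which stood apart over all genes, also differed in these patterns. Over all genes tested it was the lowest of the 3 for 38.8% and the highest for 45.2%. Among the 44 genes above at both days its median was 8.56, against 9.85 and 9.75 in replicates 1 and 2, and it was the lowest for 39. For the 30 genes above at day 5 and within 1 at day 10 it had 8.06, against 7.82 and 7.52, and was the highest for 21. Among the 44 genes within 1 at both days its median was 7.002, against 6.64 and 6.35, and it was the highest for 31. Among the 29 genes within 1 at day 5 and below at day 10 it had 7.05, against 6.52 and 5.95, and was the highest for 20. Across the 163 genes, each centred on its mean over the 12 libraries, replicate 3 correlated with replicates 1 and 2 at a Pearson r of 0.21 and 0.19, where these 2 correlated with each other at 0.87. The values share the centring and the normalisation of the table, and the correlation is a description over genes, which are not independent replicates.

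Some of the 163 genes stood next to each other in the table. Another of the 163 stood in the row directly above or below for 18 of them (11.04%), in 8 runs of which the longest held 3 rows, whereas 1.29% of all genes tested had one of the 163 in a neighbouring row. Within 3 rows, 33 had another. The 2 genes with identical values also have identifiers that are close to each other. Rows that share sequence or overlap can share reads, and no source used here says how the authors' counting divided such reads, so neighbouring rows may not be separate measurements.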

How the data were processed

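The authors deposited 1 table of 32958 rows by 12 libraries of log2 values. The submitters' processing notes name DESeq2 1.12.4, RSEM 1.2.29, Bowtie2 and build mm10 with no role or order, and no source used here names the transform. A value other than 0 was present in all libraries for 25194 rows. Columns were matched to samples by source name. Genes were tested when at least 3 libraries reached 10 on the linear scale (3.32 in log2), which kept 15842 genes and all 163 described. That filter had no part in choosing them, but their level condition makes it likely that they pass it.

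Differences were tested with limma 3.58.1 in R 4.3.3 on the 4 groups jointly, with a prior variance that depends on the mean and 8 residual degrees of freedom. Tests were two-sided, adjusted by Benjamini-Hochberg over all genes tested, with a threshold of 0.05. The procedure was tested on simulated data. Replicates are not stated to be separate animals, and p-values therefore reflect only the variation among these libraries, which may be technical. Members, rule, named genes and lists were chosen with earlier results of these data known. The named genes are the 2 with the largest day difference in Cherry- cells and the 2 with the lowest in Cherry+ cells. Gene lists, marker lists and sequences need gene names and were not used here. Depth is unknown, so no interval for counting error was computed. Alternatives covered scaling, filter, libraries fitted, weights, prior, replicate block and each library left out. Figures were drawn with matplotlib 3.10.9.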

Additional observations from a re-analysis of the deposited data

How the results depend on the processing

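The 9 genes called between the days in Cherry+ cells became 3 without a filter, 0 with library quality weights, 0 with only the 6 Cherry+ libraries and 14 of 226 with the upper bound dropped, and 0 to 14 with 1 library left out. The 695 of all genes tested became 276, 0 and 0 under the first 3 of these, and 0 to 1655 with 1 library left out. Without the 3 libraries that stood apart the counts were 34 and 1299. Filtering and fitting fewer libraries change how many genes are tested or the degrees of freedom, and for the remaining shifts the cause was not tested. The replicate block gave 5 and 196, and a correlation between libraries that share a source letter gave 8 and 613. The deviations of same-numbered Cherry+ libraries at the 2 days correlated at -0.391, -0.194 and -0.443 over all genes tested, and the numbers were not taken as pairs. Cherry- and Cherry+ libraries that share a letter correlated at 0.254, 0.161 and 0.228 at day 5 and at -0.142, 0.572 and 0.107 at day 10. The median Cherry+ difference of the 163 genes stayed above 0, at 0.0452 to 0.257 with 1 library left out, 0.281 with library quality weights and 0.344 without those 3 libraries, against 0.113 with all. The number of genes taken was 108 at a threshold of 1.5 log2 units, 240 at 1, 262 without those 3 libraries, and 134 to 260 with 1 library left out. Quantile normalisation gave 171, of which 148 were among the 163, cyclic loess gave 183 (158 shared), and rescaling by median ratios gave 162 (160 shared). The named genes kept the direction of their Cherry+ difference under every alternative run. For uc007oxd.1 and uc007oxb.2, picked on that difference in overlapping libraries, the choice favours this. The values without those 3 libraries, without the 6 genes whose level condition rested on a Cherry+ mean, with a correlation between libraries that share a letter, and with the upper bound dropped were chosen after seeing the data. Folds of low genes may be understated on a shrunken scale, and this was not tested.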
